A study of Mus musculus with 30 samples.

Results

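Stromal-vascular cells (SVC) are the cells that sink when collagenase-digested fat is spun: fibroblast-like progenitors of adipocytes, macrophages and other immune cells, endothelial cells, pericytes and, from depots with a serosal surface, mesothelial cells. Male SVC of the Ctnnb1 knockout label were compared here with male SVC of the control label. The libraries were chosen by the column codes of the count table, which the labels tie to cell type, sex and genotype, and came to 7 of the 30 libraries of the series, 4 knockout and 3 control. The controls were sex- and age-matched mice of genotype Ctnnb1fl/fl, and the knockouts carry the name Ctnnb1AdKO. No drug or diet is given in the labels, and neither are the ages. The labels do not name the promoter that drives the deletion, the exons it removes or what the letters before KO stand for. They also give the epididymal and the posterior subcutaneous white fat depot together for every library, and do not state whether replicates came from separate mice. The spread behind each p-value is thus that between libraries, and some of it may be technical.

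Ctnnb1 encodes β-catenin. In canonical Wnt signalling a Wnt ligand, bound to a Frizzled receptor and an Lrp5 or Lrp6 co-receptor, stops the destruction complex from marking β-catenin for degradation, and β-catenin then enters the nucleus and joins Tcf/Lef factors at target genes such as Axin2. At cell junctions β-catenin has another role, tying cadherins to actin through α-catenin. In fat, Wnt signals are known for holding progenitors back from becoming adipocytes.

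The 7 libraries held 20484836 to 21770428 counts each, nearly the same depth. Levels are CPM (counts scaled to a common library total) adjusted by the TMM method within the fit of the 7 libraries. They carry no correction for gene length and are compared only between libraries. The label was checked against markers. Pdgfra, a receptor of fibroblast-like progenitors, had 165 to 419 CPM in the 7 libraries, against means of 2.20 and 2.38 CPM in the male adipocyte libraries of control and knockout label. Adgre1, the macrophage antigen F4/80, had 214 to 490 CPM against 27.3 and 29.2 CPM. The adipocyte hormone gene Adipoq had 8.19 to 153 CPM against 5681 and 5270 CPM. Xist was at most 0.333 CPM and the Y-linked Ddx3y at least 78.9 CPM in all 7, as the male label says.

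Transcripts of male reproductive tissue were most abundant in a pair of libraries. In control 1 the epididymal genes, counted without Mfge8, which all 7 libraries expressed, took 0.774% of the counts, against 0.0297% to 0.0499% in the other 6. Gpx5, a secreted peroxidase of the epididymis, had 1809 CPM in control 1 and at most 1.03 CPM elsewhere. In knockout 4 the 24 sperm and spermatid genes took 0.605% of the counts, in control 1 0.101%, in control 2 0.0201%, and in the other 4 libraries 0.00107% to 0.00422%. Ldhc, the lactate dehydrogenase of germ cells, had 1311 CPM in knockout 4, 140 CPM in control 1, 12.7 CPM in control 2 and 0.910 to 4.64 CPM in the rest. Prm1, a protamine that packs sperm DNA, had 332, 37.4 and 13.3 CPM in the same 3 libraries and 0.103 to 3.41 CPM in the rest. The ratio of knockout 4 to control 1 over the 24 genes had a median of 6.03 and ran from 4.72 to 10.8, so both libraries held much the same set of germ-cell transcripts in different amounts. Across genes, over log2 CPM, knockout 4 correlated with the other libraries down to r = 0.758, while the 5 libraries other than control 1 and knockout 4 correlated at r = 0.950 or more with each other. Of genes with at least 1 CPM in 1 library and under 0.1 CPM in each of the other 6, there were 129 in knockout 4 and 53 in control 1, against at most 1 in any other library. Control 2 stays in the fit that leaves out control 1 and knockout 4, so that fit is not free of germ-cell transcripts. All 17 sperm and spermatid genes tested in it were negative, knockout minus control, with a median log2 fold change of -2.11.

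**Figure D1:**
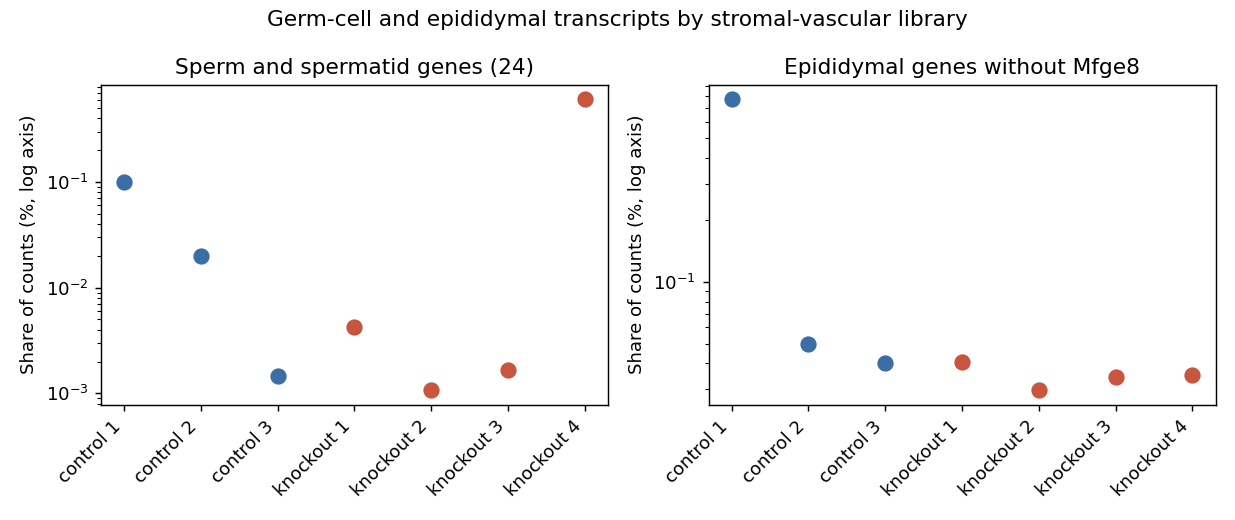
Share of counts (percent, log axis) taken by 24 sperm and spermatid genes (left) and by epididymal genes without Mfge8 (right) in each of the 7 libraries, control in blue and knockout in red, 1 point per library. Knockout 4 stands highest at 0.605% on the left and control 1 at 0.774% on the right.

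Ctnnb1 mRNA itself did not separate the labels. It had 497, 532 and 490 CPM in controls 1 to 3 and 742, 528, 513 and 360 CPM in knockouts 1 to 4. The knockout libraries held both the highest and the lowest value, and the groups overlapped. The means were 506 ± 22.2 CPM (SD, n = 3) and 536 ± 157 CPM (SD, n = 4). An exact two-sided permutation test gave p = 0.714, and its 35 arrangements allow only coarse steps of p. Without knockout 1 the sign of the difference turned, to -39.0 CPM, knockout minus control (exact two-sided permutation p = 0.8). Counts are per gene, so a transcript that lacks some exons counts as Ctnnb1 too. Ctnna1, the α-catenin that β-catenin binds at junctions, was highest and lowest in the same libraries, with 398 CPM in knockout 1 and 212 CPM in knockout 4.

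No gene passed the test between labels: edgeR's quasi-likelihood test with Benjamini-Hochberg adjustment called 0 of 16404 genes (0%). At an unadjusted p below 0.05 there were 429 genes, fewer than the 820 that make up 5% of the genes tested, of which 360 were lower (2.19%) and 69 higher (0.421%) in knockout libraries. That count depended on the setting and ran from 231 without control 2 to 2712 in limma-voom with quality weights, where 1306 were higher and 1406 lower. Without control 3 it was 1199, and the balance turned to 772 higher and 427 lower. Every knockout library lay below every control library for 486 genes (2.96%) and above for 152 genes (0.927%). The median log2 fold change over all genes tested was 0.04. DESeq2's Wald test on the same genes called 68 lower (0.415%) and 8 higher (0.0488%) at an adjusted p below 0.05. Of its 68 lower genes, 11 were immunoglobulin segments, which differ between animals by clone and whose reads the counting may split among near-identical copies. The gene groups below are described by counts and by their median fold change beside these numbers over all genes, and none of their members passed edgeR's adjusted test in the fit of these 7 libraries. In bulk samples fewer cells of a type and less RNA per cell cannot be told apart.

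Apart from the epididymal genes, which control 1 alone holds in quantity, mesothelial genes had the most negative median of the 53 lists. Mesothelial cells form the serosal sheet over visceral organs, including epididymal fat. Of 14 marker genes tested, 13 were lower by sign (median log2 fold change -2.03), 10 were below an unadjusted p of 0.05, all of them lower, and for 10 every knockout library lay below every control library. Without control 1 and knockout 4 the median was -1.81, with 11 of the 14 negative. DESeq2 called 7 of the 14, all lower.

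Upk3b, a uroplakin of the mesothelial surface, had 152, 87.8 and 280 CPM in controls and 17.5, 36.7, 23.6 and 31.9 CPM in knockouts. Its log2 fold change was -2.66 (SE 0.43) with an unadjusted edgeR p of 0.00049 and an adjusted p of 0.737. The related uroplakin Upk1b had 39.1, 15.0 and 50.9 CPM in controls and 4.10, 6.00, 3.98 and 4.80 CPM in knockouts. In both genes the lowest control library was control 2 and lay above all 4 knockout libraries. Msln, which encodes the surface protein mesothelin, had 41.8, 20.1 and 72.6 CPM against 5.60, 12.4, 6.42 and 8.84 CPM. Lrrn4, a leucine-rich repeat membrane protein, had 29.9, 16.2 and 55.6 CPM against 2.46, 7.01, 4.98 and 5.04 CPM. Gpm6a, a membrane glycoprotein, had 43.3, 22.3 and 65.7 CPM against 8.97, 11.4, 10.8 and 8.98 CPM. The 3 genes share 1 order among the controls, control 3 above control 1 above control 2, and 8 of the 10 members without overlap had it. Bnc1, a zinc finger transcription factor, Krt7, a simple keratin, Muc16, a large surface mucin, Nkain4 and the Wnt amplifier Rspo1 had fold changes from -2.33 to -0.84 and likewise no overlap.

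The exceptions in the list were Wt1 and 3 keratins. Wt1, a transcription factor that fat progenitors of visceral depots express as well, had 71.5, 78.2 and 60.5 CPM in controls and 78.7, 49.5, 41.3 and 38.5 CPM in knockouts. Krt8, a keratin of simple epithelia, had 155, 35.1 and 34.8 CPM against 117, 5.29, 219 and 27.2 CPM. Krt18, its partner, had 97.7, 19.6 and 23.2 CPM against 53.4, 3.78, 82.9 and 12.5 CPM. Krt8 and Krt18 were high in control 1, knockout 1 and knockout 3, a different set of libraries from those high in Upk3b, and their groups overlapped, as did those of Krt19.

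**Figure D2:**
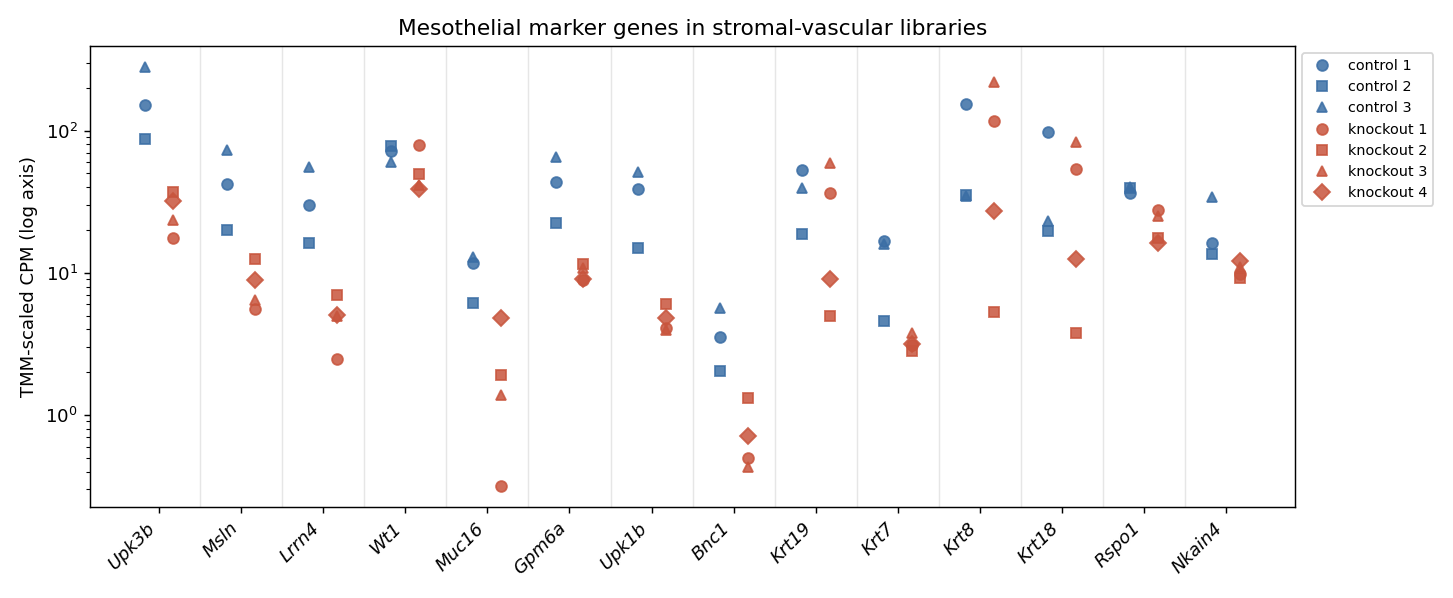
TMM-scaled CPM (log axis) of the 14 mesothelial marker genes in each library, control in blue and knockout in red, with 1 marker shape per library as in the legend. For 10 of the 14 genes all 4 knockout points lie below all 3 control points, while Wt1, Krt8, Krt18 and Krt19 overlap.

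The 10 lower genes of smallest p held 3 of these markers (Upk1b, Upk3b and Gpm6a) and 7 further genes. Wnt2b, a canonical Wnt ligand, was first. It had 17.9, 12.8 and 27.8 CPM in controls and 3.69, 3.83, 3.83 and 3.95 CPM in knockouts. The 4 knockout values lay close together, far under the lowest control. The log2 fold change was -2.35 (SE 0.28), with an unadjusted edgeR p of 7.5e-05 and an adjusted p of 0.465. Pkhd1l1, a large membrane protein related to fibrocystin, had 38.9, 22.8 and 60.9 CPM against 4.23, 7.41, 6.47 and 5.80 CPM. Fras1, a basement membrane protein of epithelia, had 8.01, 5.67 and 9.76 CPM against 1.27, 1.56, 1.72 and 2.04 CPM. Cdh11, a cadherin of mesenchymal cells and so a junction partner of β-catenin, had 29.0, 22.2 and 49.6 CPM against 10.9, 11.9, 11.1 and 11.1 CPM. In Wnt2b, Pkhd1l1, Fras1 and Cdh11, as in Upk3b, control 3 was highest and control 2 the lowest control. Flnc, the actin cross-linker filamin C, differed less, with 150, 118 and 128 CPM against 68.5, 80.5, 64.8 and 73.5 CPM (log2 fold change -0.88, SE 0.14). The proteoglycan Spock3 and the polarity protein Crb2 were low in all libraries, at most 3.92 and 4.59 CPM, with fold changes of -3.42 and -2.45. In both, too, control 3 was highest and control 2 the lowest control.

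The mesothelial markers had negative fold changes in the male adipocyte fraction as well, in 6 control and 5 knockout libraries that are separate from these 7, though whether they come from the same mice is not stated. In 5 of 6 pairs of an SVC and an adipocyte library with the same label and column code number, the deviations from the group means correlated across genes at 0.193 to 0.254, and in the sixth at -0.012. Pairs of unlike number were not set beside these, so the values cannot show whether mice were shared. The fit of both fractions treats their libraries as independent. All 14 mesothelial markers were negative in the adipocyte fraction, and their median was -1.41, against 0.01 over all genes. Upk3b averaged 25.8 ± 20.7 CPM (SD, n = 6) in control and 7.93 ± 4.75 CPM (n = 5) in knockout adipocyte libraries, with an adjusted edgeR p of 0.459. Wnt2b averaged 2.34 ± 2.10 against 0.599 ± 0.443 CPM. The difference of the fold changes between fractions was -0.95 (SE 0.81) for Upk3b and -0.38 (SE 0.84) for Wnt2b, each of about the size of its SE or smaller. Neither gene passed edgeR's adjusted test in either fraction. In SVC the adjusted DESeq2 p was 6.6e-08 for Upk3b and 1.4e-10 for Wnt2b.

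Among the higher genes, those of lipid-associated macrophages stood together. These are macrophages that take up and digest lipid from dying or overfilled adipocytes and switch on lysosomal and lipid-handling genes. All 11 markers were positive by sign (median log2 fold change 0.82), 5 were below an unadjusted p of 0.05, all higher, and for 4 every knockout library lay above every control library. Without control 1 and knockout 4 all 11 stayed positive, with a median of 0.63. DESeq2 called 2, Gpnmb and Atp6v0d2.

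Gpnmb, a glycoprotein of the lysosome and cell surface, had 109, 177 and 143 CPM in controls and 211, 514, 390 and 600 CPM in knockouts. Knockout 1 was the lowest of the knockouts and lay closest to the controls. Its log2 fold change was 1.58 (SE 0.38) with an unadjusted edgeR p of 0.00422 and an adjusted p of 0.968. Atp6v0d2, a subunit of the proton pump that acidifies lysosomes, had 22.5, 14.2 and 20.3 CPM against 24.3, 70.4, 48.0 and 55.9 CPM. Mmp12, the elastase of macrophages, had 69.7, 77.6 and 216 CPM against 233, 654, 224 and 398 CPM. Fabp5, a fatty acid carrier, had 42.2, 47.3 and 82.0 CPM against 132, 102, 88.9 and 92.9 CPM. Unlike Gpnmb and Atp6v0d2, it was highest in knockout 1. Its means in adipocyte libraries were 120 ± 30.6 CPM (SD, n = 6) in control and 178 ± 123 CPM (n = 5) in knockout. In SVC they were lower, at 57.2 ± 21.6 CPM (n = 3) and 104 ± 19.3 CPM (n = 4), though the 2 fractions were scaled in separate fits. In Mmp12 and Fabp5 control 3 came close to the lowest knockout library. Trem2, the lipid-sensing receptor that defines these cells, had 20.8, 24.7 and 54.1 CPM against 40.7, 94.7, 67.1 and 74.1 CPM, so control 3 lay above knockout 1. Spp1, which encodes osteopontin, overlapped fully, with 8.32, 7.48 and 27.8 CPM against 18.5, 23.2, 21.8 and 18.1 CPM. Of the 11 genes, 8 were highest in knockout 2 and 8 were lowest in control 1.

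General macrophage markers did not show the same gap. Of 17 markers of resident macrophages 15 were positive, but the median was 0.18 (0.086 without control 1 and knockout 4), none was below an unadjusted p of 0.05 and none was free of overlap. Adgre1 had 214, 243 and 490 CPM in controls and 281, 479, 420 and 328 CPM in knockouts. Mrc1, the mannose receptor CD206, had 500, 562 and 992 CPM against 548, 850, 845 and 568 CPM. Control 3 was the highest of the 7 libraries in both. Monocyte genes had a median of -0.03 and genes of dendritic cells one of 0.05. In the adipocyte fraction all 11 lipid-associated macrophage genes were positive as well, with a median of 0.70, where resident macrophage genes had a median of -0.27. Gpnmb averaged 18.5 ± 11.6 CPM (SD, n = 6) in control and 52.0 ± 29.6 CPM (n = 5) in knockout adipocyte libraries, with an adjusted edgeR p of 0.369.

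**Figure D3:**
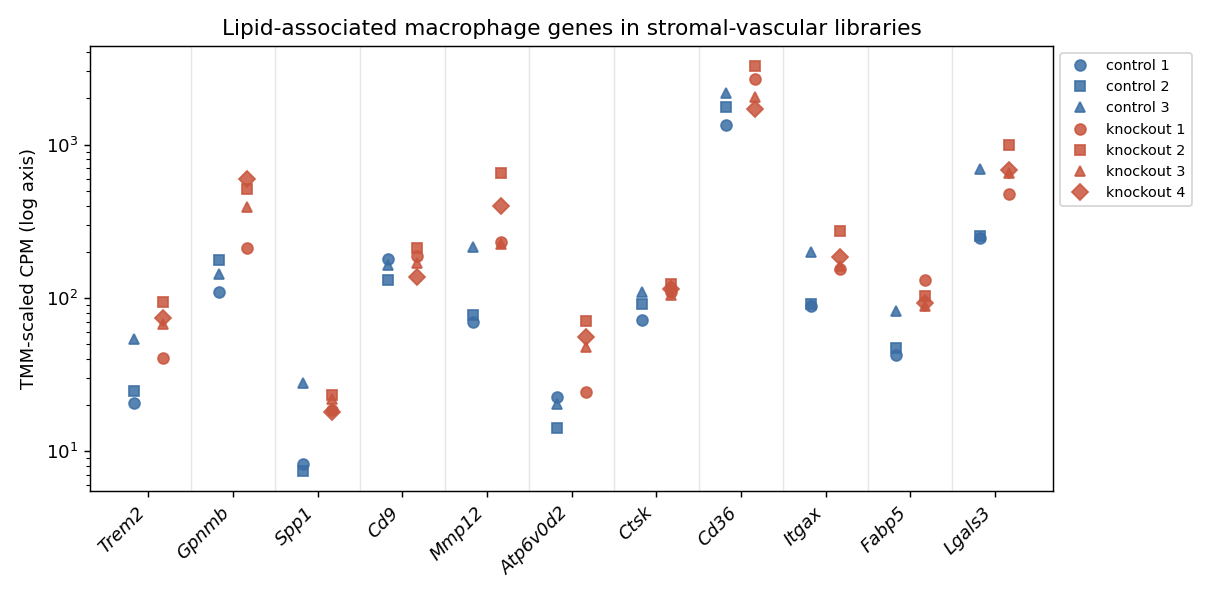
TMM-scaled CPM (log axis) of the 11 lipid-associated macrophage genes in each library, control in blue and knockout in red, with 1 marker shape per library. All knockout points lie above all control points for Gpnmb, Mmp12, Atp6v0d2 and Fabp5, and control 3 (blue triangle) is mostly the highest control.

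The 10 higher genes of smallest p held Gpnmb, Atp6v0d2 and Fabp5 and 7 further genes. Cdk18, a cyclin-dependent kinase, was first, with 5.57, 5.11 and 3.56 CPM in controls and 9.19, 18.3, 11.8 and 15.3 CPM in knockouts (log2 fold change 1.52, SE 0.32). Wfs1, a membrane protein of the endoplasmic reticulum, had 39.2, 34.3 and 31.4 CPM against 42.9, 63.9, 55.0 and 57.3 CPM. F7, which encodes coagulation factor VII, had 5.18, 4.09 and 9.19 CPM against 10.3, 21.6, 14.7 and 13.4 CPM. In these genes the groups did not overlap, and knockout 1 was the lowest knockout library. Stra6l, Ceacam19, Dusp9 and Creg2 were low in all libraries, at most 3.73 CPM, with fold changes from 1.30 to 1.62.

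Heat shock genes had negative fold changes. Their proteins are chaperones that refold damaged proteins, or helpers of these, and the heat shock factor Hsf1 switches many of them on. Of 15 genes tested all were negative by sign, the median was -0.59, 8 were below an unadjusted p of 0.05 and for 7 every knockout library lay below every control library. Without control 1 and knockout 4 the median was -0.82. DESeq2 called 4 of them lower. Control 2 was the highest library for 12 of the 15 genes.

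Hsf1 binds repeats of GAA and its reverse complement TTC. The 250 bases before the start were searched for GAANNTTC and TTCNNGAA, each of which reads the same on both strands and which can overlap each other. Of 32851 RefSeq promoters (GRCm38.p6) 12.8% hold either. Of the 15 heat shock genes 12 had a promoter in the table and 8 of these held a match. A gene counted if any of its promoters matched, so this count is per gene and the 12.8% per promoter. The stretches below are shown because these genes had the largest fold changes of the list, and capitals mark the matched GAA and TTC.
Hspa1a, chr17:34972237-34972276, minus strand: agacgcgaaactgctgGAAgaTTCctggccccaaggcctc
Hspa1b, chr17:34959319-34959358, minus strand: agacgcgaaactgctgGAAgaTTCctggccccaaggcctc
Hsph1, chr5:149636346-149636385, minus strand: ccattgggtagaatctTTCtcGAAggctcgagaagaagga
Hspd1, chr1:55088043-55088092, minus strand: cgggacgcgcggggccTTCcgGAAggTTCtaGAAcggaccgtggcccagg
Hspe1, chr1:55088043-55088092, plus strand: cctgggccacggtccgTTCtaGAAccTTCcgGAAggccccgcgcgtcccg
Hspd1 and Hspe1 start from opposite strands of 1 shared interval, and Hspa1a and Hspa1b show the same 40 bases. A match is a description of these letters and not a binding site.

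Hspa1a, an inducible Hsp70, had 1221, 5408 and 1948 CPM in controls and 515, 831, 722 and 971 CPM in knockouts. Its near-identical copy Hspa1b, whose reads the counting may have split with it, had 1802, 8040 and 2750 CPM against 621, 1052, 1008 and 1441 CPM. In both the control libraries varied more than 4-fold among themselves, and the lowest control lay close above the highest knockout. Their log2 fold changes were -1.91 (SE 0.52) and -2.03 (SE 0.55), with adjusted edgeR p of 0.968. Without control 2 they were -1.002 and -1.08. Hsph1, the Hsp110 that resets Hsp70, had 511, 2077 and 892 CPM against 196, 295, 342 and 460 CPM. Hspd1, the mitochondrial Hsp60, had 301, 834 and 495 CPM against 175, 237, 253 and 257 CPM. Hspe1, its cofactor Hsp10, had 46.0, 96.6 and 82.3 CPM against 31.9, 35.6, 36.0 and 42.4 CPM. Knockout 1 was the lowest library and control 2 the highest in all 5 of these genes. Dnaja1 and Chordc1, co-chaperones of Hsp70 and Hsp90, had fold changes of -0.59 and -0.66 without overlap. Hspa8, the Hsp70 made without stress, overlapped, with 3136, 4165 and 5608 CPM against 3995, 4051, 3994 and 3175 CPM. In the adipocyte fraction 9 of the 15 genes were negative and 6 positive, with a median of -0.05. Hspa1a and Hspa1b were among the negative there, at -1.44 (SE 0.64) and -1.12 (SE 0.65). Their adjusted edgeR p in adipocytes was 0.625 and 0.735. The difference of the fold changes between fractions was -0.46 (SE 1.00) for Hspa1a and -0.90 (SE 1.02) for Hspa1b.

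**Figure D4:**
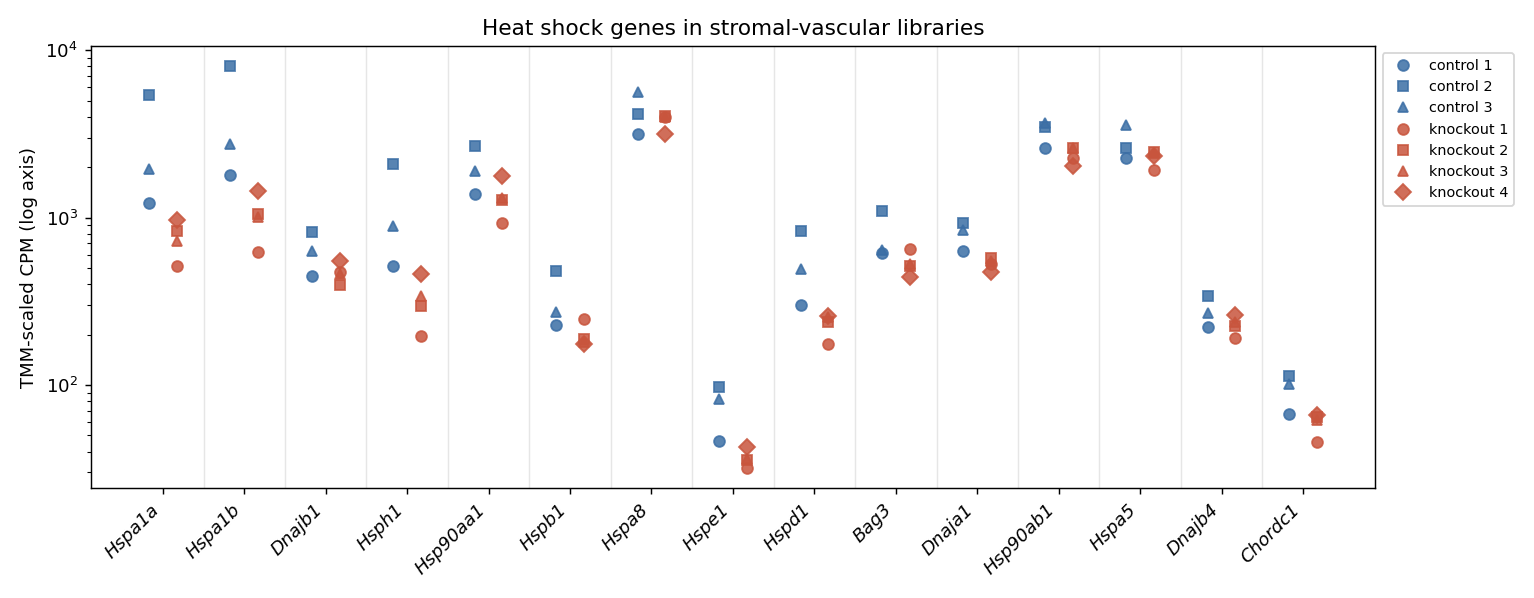
TMM-scaled CPM (log axis) of the 15 heat shock genes in each library, control in blue and knockout in red, with 1 marker shape per library. Control 2 (blue square) is highest for 12 of the 15 genes, and the 3 controls of Hspa1a spread from 1221 to 5408 CPM.

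Of the Wnt pathway, DESeq2 called the ligand Wnt2b and the target Tnfrsf19, both lower, and the medians of its lists lay between -0.34 and -0.01. Wnt2b had the control order of the mesothelial genes, and the part of mesothelial content in its difference was not tested. Of 15 genes for ligands and their secretion 12 were negative, with a median of -0.29, and 3 were below an unadjusted p of 0.05, all lower. The median was -0.12, with 10 negative, without control 1 and knockout 4. Wls, which carries Wnt ligands to the cell surface, had 125, 135 and 170 CPM in controls and 112, 145, 129 and 95.5 CPM in knockouts. Porcn, which attaches the lipid that Wnt ligands need, had 7.58, 9.90 and 6.25 CPM against 10.7, 9.07, 9.29 and 6.42 CPM. Both overlapped. Wnt9a, another ligand, had 6.14, 7.48 and 7.80 CPM against 5.28, 5.24, 4.17 and 2.76 CPM (log2 fold change -0.71, SE 0.30). Rspo1, a secreted amplifier of Wnt signals that is also in the mesothelial list, had 36.5, 39.3 and 40.2 CPM against 27.4, 17.6, 25.2 and 16.1 CPM. Neither Wnt9a nor Rspo1 overlapped between labels.

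Among the 19 receptors and co-receptors tested none was below an unadjusted p of 0.05, and the median was -0.18, or -0.0019 without control 1 and knockout 4. Lrp5 had 99.0, 104 and 75.2 CPM in controls and 141, 88.4, 87.9 and 72.3 CPM in knockouts. Lrp6 had 121, 145 and 109 CPM against 107, 136, 116 and 83.8 CPM, again with overlap. Of 10 secreted inhibitors 8 were negative, with a median of -0.34, or -0.20 without control 1 and knockout 4. Dkk3, a member of the Dickkopf family, had 12.7, 9.57 and 18.2 CPM against 6.69, 5.59, 8.91 and 4.28 CPM, without overlap (log2 fold change -1.08, SE 0.33). Sfrp2, a Frizzled-like decoy, had 41.9, 23.3 and 40.7 CPM against 10.8, 26.0, 19.4 and 13.6 CPM, where knockout 2 lay above control 2 (log2 fold change -1.02, SE 0.35). Both were below an unadjusted edgeR p of 0.05 (0.0143 and 0.0237).

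Downstream of the receptors the medians were near that of all genes. The 16 genes of the destruction complex and cytosolic signalling had a median of -0.01, the 15 Tcf/Lef factors and nuclear partners one of -0.11, and in neither list was a gene below an unadjusted p of 0.05. These medians were 0.015 and 0.042 without control 1 and knockout 4. Tcf7l2, a main Tcf factor of fat progenitors, had 17.5, 21.1 and 17.1 CPM in controls and 22.7, 16.9, 15.2 and 10.1 CPM in knockouts. Of 24 target and feedback genes 14 were negative, with a median of -0.10, and 3 were below an unadjusted p of 0.05, all lower. Leaving out control 1 and knockout 4 gave a median of 0.012, with 12 of the 24 negative. Axin2, the feedback inhibitor most used as a readout of the pathway, had 18.4, 15.9 and 7.95 CPM against 11.9, 9.63, 13.7 and 6.89 CPM. The groups overlapped, and without control 1 and knockout 4 its log2 fold change went from -0.42 (SE 0.36) to 0.028. Lef1, both a partner and a target of β-catenin, had 18.2, 6.41 and 5.68 CPM against 5.42, 6.00, 4.65 and 25.5 CPM. It was high in control 1 and knockout 4, the libraries with the most germ-cell transcripts, and the part of those transcripts in this was not tested. Tnfrsf19, a receptor listed as a Wnt target, had 3.27, 0.557 and 1.39 CPM against 0.228, 0.252, 0.383 and 0.238 CPM. The groups did not overlap, at low levels and with the controls far apart. Its log2 fold change was -2.64 (SE 0.61), with an adjusted edgeR p of 0.968 and an adjusted DESeq2 p of 0.0236, and was -1.68 without control 1 and knockout 4. Fst, which encodes the activin antagonist follistatin, had 77.6, 87.2 and 56.3 CPM against 49.6, 52.8, 44.3 and 55.8 CPM, and knockout 4 lay just under control 3.

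Most progenitor genes had small negative fold changes. Of 12 genes of adipocyte progenitors and fibroblasts all 12 were negative, with a median of -0.26, but none was below an unadjusted p of 0.05, all overlapped, and 10 were lowest in knockout 4. Without control 1 and knockout 4 the median was -0.14, with 3 of the 12 positive. Pdgfra had 330, 419 and 263 CPM in controls and 305, 267, 258 and 165 CPM in knockouts. Col1a1, a chain of collagen I, had 1152, 1173 and 1121 CPM against 1187, 1216, 925 and 790 CPM. Of 10 genes of the interstitial Dpp4 progenitors, which lie in the connective tissue around fat lobules, 9 were negative, with a median of -0.52. Dpp4 had 117, 114 and 119 CPM against 52.3, 104, 76.7 and 54.0 CPM, and Sema3c, a secreted semaphorin of the same cells, 147, 125 and 128 CPM against 70.4, 119, 83.7 and 76.5 CPM. Neither overlapped, and knockout 2 came close to the controls in both. The list's median was -0.18 without control 1 and knockout 4. F3, tissue factor, which marks regulatory stromal cells, had 149, 155 and 191 CPM against 108, 108, 99.1 and 127 CPM. The 10 genes of its list had a median of -0.19, and 7 were highest in knockout 1. Without control 1 and knockout 4 the median was 0.026, with 7 positive. Of 10 genes of Icam1 committed preadipocytes 4 were positive, with a median of -0.07. That median was 0.013, with 5 positive, without control 1 and knockout 4.

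Among 30 growth factor genes of fat stroma 25 were negative, with a median of -0.39, and 5 were below an unadjusted p of 0.05, all lower. With control 1 and knockout 4 left out, 21 were negative and the median was -0.23. Fgf1, a fibroblast growth factor that fat makes on feeding, had 75.0, 44.5 and 126 CPM in controls and 22.0, 21.6, 33.8 and 19.6 CPM in knockouts, with the control order 3, 1, 2 of the mesothelial genes. Its log2 fold change was -1.75 (SE 0.37), with an adjusted edgeR p of 0.968 and an adjusted DESeq2 p of 0.000902. edgeR's fit of the 18 male libraries, which takes its spread from all of them, called it lower in SVC at -1.72 (SE 0.27) with an adjusted p of 0.0461. Fgf2 had 40.8, 44.6 and 32.1 CPM against 17.8, 31.7, 24.0 and 23.7 CPM. Igf1, the main growth factor gene of the list, overlapped, with 271, 442 and 293 CPM against 413, 241, 320 and 249 CPM. Il33, an alarmin made by stromal and mesothelial cells, had 30.3, 30.2 and 55.6 CPM against 26.4, 17.7, 15.4 and 12.4 CPM, without overlap. C3, the central complement protein, had 5591, 7123 and 8342 CPM against 5111, 4730, 4945 and 3919 CPM, also without overlap.

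Several lists had their extremes in single libraries. Of 12 endothelial genes 11 were positive, with a median of 0.40, but all 12 were highest in knockout 1 and lowest in knockout 4. All 12 were positive without control 1 and knockout 4, with a median of 0.73. Pecam1, the endothelial adhesion molecule CD31, had 240, 306 and 183 CPM in controls and 696, 293, 221 and 83.1 CPM in knockouts. Ctnnb1 had its highest and lowest values in the same libraries, and the part of endothelial content in that was not tested. Of 22 cell cycle genes 21 were positive, with a median of 0.62 that was 0.15 without control 1 and knockout 4. Ccnb1, a cyclin of mitosis and meiosis, had 8.10, 2.09 and 4.70 CPM against 3.28, 3.88, 3.59 and 44.8 CPM, high in knockout 4 alone. Mki67, the proliferation marker Ki-67, overlapped, with 41.1, 46.8 and 66.5 CPM against 37.2, 62.0, 67.3 and 51.5 CPM. All 10 B cell genes were negative, with a median of -0.54, and 9 were highest in control 3 and all 10 lowest in knockout 4. Without control 1 and knockout 4 all 10 stayed negative, with a median of -0.49.

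Adipocyte genes were present at low levels and had positive fold changes. All 14 were positive, with a median of 1.15 and of 0.66 without control 1 and knockout 4. Adipoq had 8.19, 15.1 and 90.0 CPM in controls and 15.7, 54.7, 153 and 127 CPM in knockouts. Plin1, the coat protein of lipid droplets, had 7.79, 15.1 and 76.4 CPM against 27.5, 48.9, 129 and 99.5 CPM. Control 3 lay well above knockout 1 in both, all 14 genes overlapped, and only Pnpla2 was below an unadjusted p of 0.05. Fasn, the fatty acid synthase, had 179, 152 and 253 CPM against 367, 189, 482 and 346 CPM. Knockout 1, low in Adipoq, was the second highest library in Fasn. The sum of the 14 adipocyte genes was 361 to 1105 CPM in control and 624 to 1889 CPM in knockout libraries. The share of counts of mitochondrially encoded genes was 0.997% ± 0.0160 (SD, n = 3) in control and 1.26% ± 0.290 (n = 4) in knockout libraries (exact two-sided permutation p = 0.143). In controls mt-Co1 averaged 5441 of the 9920 CPM summed over the 13 genes, while mt-Co2 and mt-Co3 averaged 0.678 and 0.668 CPM. The share thus rests largely on mt-Co1 and does not cover these genes evenly.

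**Figure D5:**
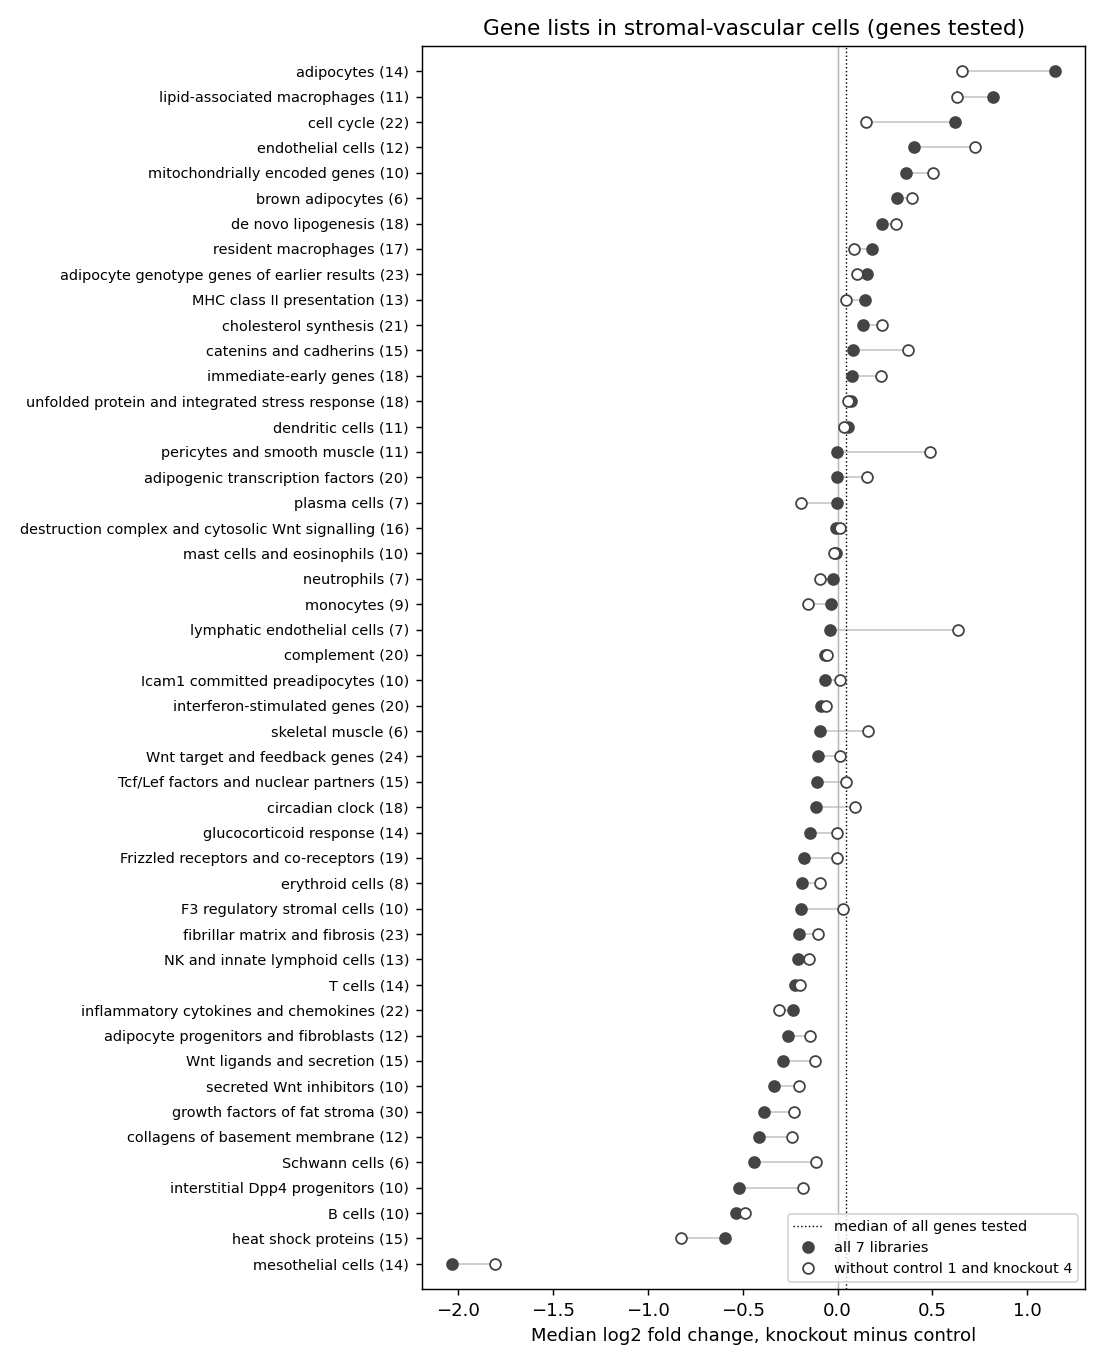
Median log2 fold change (knockout minus control) of each gene list with at least 5 genes tested, from all 7 libraries (filled) and without control 1 and knockout 4 (open), with the number of genes tested in parentheses and the median of all genes as a dotted line at 0.04. Mesothelial genes lie lowest at -2.03 and -1.81, and heat shock genes next at -0.59 and -0.82. Adipocyte genes lie highest from all 7 libraries at 1.15, and the epididymal and sperm lists are not drawn.

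Whether the label's difference in SVC is itself unlike that in adipocytes was tested in the 18 male libraries. edgeR called 0 of 17251 genes (0%) for the difference between the fractions. For SVC alone the same fit called 3 genes, Rxrg higher and Fgf1 and the ephrin receptor gene Ephb6 lower. Fgf1 had the smallest p. Its log2 fold change in this fit was -1.72 in SVC and 0.29 (SE 0.22) in adipocytes. In adipocytes it averaged 43.3 ± 6.53 CPM (SD, n = 6) in control and 52.9 ± 5.73 CPM (n = 5) in knockout libraries. The difference of -2.01 (SE 0.35) had an adjusted edgeR p of 0.287. Vat1l, which encodes a relative of a synaptic vesicle protein, had 2.83, 1.67 and 4.70 CPM in SVC controls and 0.182, 0.403, 0.575 and 1.05 CPM in SVC knockouts. The difference between fractions was -2.95 (SE 0.57) with an adjusted p of 0.324. Rxrg, a nuclear receptor named here after its values were seen, had 0.131, 0.0929 and 0.258 CPM in SVC controls and 0.546, 0.504, 1.15 and 1.62 CPM in SVC knockouts. It averaged 24.9 ± 2.04 and 28.5 ± 5.59 CPM in the adipocyte libraries of control and knockout label, so its SVC level was low beside that of adipocytes. Nog, the BMP antagonist noggin, had 1.31, 1.63 and 1.19 CPM in SVC controls and 0.728, 1.01, 0.527 and 0.760 CPM in SVC knockouts, with a difference between fractions of -1.85 (SE 0.51) and an adjusted p of 0.603.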

How the data were processed

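The authors deposited raw read counts per gene (35120 genes, of which 33501 matched a symbol) for 30 strand-specific mRNA libraries, and a table of log2 values not used here. Per the labels' protocols, collagenase (500 U/ml, 20 or 30 min by depot) freed the cells, which were strained (300 µm) and spun (80 g, 8 min), and SVC were the pellet. The submitters' processing notes name the build mm39, STAR 2.7.11a, FastQC 0.12.1 and DESeq2. How reads were counted, with what strand setting and on which annotation, is not given in the sources used here. Total counts were 20484836 to 21770428 in the 7 SVC libraries, and no pair within a group agreed within sampling noise.

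Counts were tested with edgeR 4.0.16 (quasi-likelihood F-test, TMM scaling, filterByExpr with a minimum count of 10, robust dispersions) in R 4.3.3, with Benjamini-Hochberg adjustment over all genes tested and a threshold of 0.05. SE is the log2 fold change divided by the square root of F. The 7 libraries were fitted alone, and the difference between fractions in the 18 male libraries. Values in adipocytes come from that fit, with its own scaling. The alternatives tried were DESeq2 1.42.0, other scalings and filters, limma 3.58.1, replicate blocks and leaving out libraries. The procedure was tested on simulated counts. The 53 gene lists (762 of 768 symbols found) and the libraries were chosen with earlier results of these data known. Named were Ctnnb1, the 10 genes of smallest p each way (mean of at least 1 CPM in 1 group, no predicted genes, pseudogenes or immunoglobulin segments), and from each list the first 3 members and the one of smallest p. Other members of the mesothelial, macrophage, heat shock, Wnt and growth factor lists, and Rxrg, were named after their values were seen.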

Additional observations from a re-analysis of the deposited data

Results flagged for a closer look

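In the knockout group of 4 libraries, 151 of the values reported (gene levels, summed lists and shares) were examined for a single library lying far from the other 3, which chance alone gives for about 1 group in 20. There were 12. The sperm and spermatid genes summed to 6163 CPM in knockout 4 against 11.5 to 41.8 CPM in the other knockouts. In the same library Ccnb1 stood high at 44.8 CPM (3.28 to 3.88 CPM in the others) and Lef1 at 25.5 CPM (4.65 to 6.00 CPM). Hspa8 stood low there at 3175 CPM (3994 to 4051 CPM), as did the Wnt receptor gene Fzd4 at 48.6 CPM (80.2 to 83.7 CPM) and the summed Schwann cell genes at 177 CPM (249.9 to 253 CPM).

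In knockout 1, Hspb1 stood high at 248 CPM (177 to 188 CPM in the others), the summed epididymal list with Mfge8 at 765 CPM (556 to 583 CPM), and Spock3 low at 0.0910 CPM (0.302 to 0.335 CPM). In knockout 2, Cd55, a surface regulator of complement on Dpp4 progenitors, stood high at 197 CPM (120 to 123 CPM), and so did the summed lipid-associated macrophage genes at 6316 CPM (3989 to 4275 CPM). Tnfrsf19 stood high in knockout 3 at 0.383 CPM (0.228 to 0.252 CPM). The 3 control libraries are too few for the same examination.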

How the results depend on the processing

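Where edgeR called 0 genes between labels (429 at an unadjusted p below 0.05), DESeq2's Wald test called 76, the fit of 18 male libraries called 3 (Rxrg higher, Fgf1 and Ephb6 lower), and the replicate block by title number called 1 (the epididymal gene Cst8, lower). Other scalings, filters, both limma-voom fits, the replicate block by column code, and the fit without control 1 and knockout 4 called 0. Leaving out 1 library gave 0 to 1 calls, the 1 being Rpl29, higher without control 3. For the difference between fractions, DESeq2 called 22 genes and leaving out 1 SVC library gave 0 to 1 calls (Fgf1 without control 2, Acp5 without control 3), and the other alternatives called 0, among them the fit without control 1 and knockout 4, which was added after seeing the data. The deviations of control and knockout libraries with the same title number correlated at -0.275, 0.141 and 0.353. Those of libraries sharing a column code number correlated at 0.688 (control 3 and knockout 2) and -0.257 (control 2 and knockout 4). Pairs of unlike number were not set beside these, so the values cannot show whether either number pairs the libraries. The Ctnnb1 difference ran from -39.0 to 88.2 CPM with 1 library left out, turning sign only without knockout 1, and that of the mitochondrial share from 0.191 to 0.407 percentage points. For 94 genes under 20 alternatives, a turn of sign was counted only where the fold change was at least its SE. Of these, Axin2 turned to 0.028 without control 1 and knockout 4, and Ccnb1 to -0.29 under the title-number block. Smaller fold changes turned too, such as that of Pecam1, which reached -0.29 with 1 library left out. Among all gene values, 31 of such smaller fold changes moved by more than 1 SE, and 29 values newly passed an adjusted test. Of the list medians, 40 values moved beyond the spread within groups and 1019 did not. With 1 library left out Ccnb1 ran from -0.47 (without knockout 4) to 2.03 (without control 1). The cause was not tested.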
